A study of Mus musculus with 32 samples.

Results

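Fc receptors are described here through 6 genes, Fcgr1, Fcgr2b, Fcgr3, Fcgr4, Fcer1g and Fcgrt, out of 17586 genes in the expression table deposited for sorted brain myeloid cells of the mouse. They were chosen by gene symbol as the receptors for IgG, the signalling chain these receptors share and the neonatal Fc receptor, and all 6 had a row in the table. RNA came from 4 sorted populations of 8 libraries each. Differentiated macrophages and undifferentiated macrophages of the tumour, with tumour microglia, came from mice with an intracranial implant of GL-261, a mouse glioma cell line, and normal microglia came from mice labelled Nil, with no implant. Within each tumour population 4 libraries were labelled PEP-3 into WT, with C57BL/6J recipients (WT below), and 4 were labelled WT into PEP-3, with Pep3/CD45.1 recipients (Pep3 below). Normal microglia had 4 WT and 4 Pep3 libraries and no graft. The labels name no treatment besides the implant and the graft. The sorting gates, and whether each library was a separate animal or a pool, are not given in the sources used here, so p-values measure the spread between libraries, which may be technical. Normal microglia belonged to experiments 1 and 2 and the tumour populations to experiments 3 and 4, so that experiment, graft and tumour cannot be told apart in any comparison with normal microglia. Averaged over recipient strains, the 3 tumour populations each drew 4 libraries from experiment 3 and 4 from experiment 4. In experiment 3 the macrophages came from WT and the tumour microglia from Pep3 recipients, and in experiment 4 the reverse, so a difference between them within an experiment also changes recipient strain and graft. The libraries of a population from 1 recipient strain were all of 1 experiment, so strain and experiment cannot be told apart.

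Receptors for the Fc part of IgG let myeloid cells respond to antibody-coated targets. The activating receptors FcγRI (Fcgr1), FcγRIII (Fcgr3) and FcγRIV (Fcgr4) signal through the ITAM of a common γ chain, encoded by Fcer1g, to Src-family kinases and Syk, and this drives phagocytosis, the oxidative burst and cytokine release. FcγRIIB (Fcgr2b) carries an ITIM of its own, recruits inositol phosphatases and restrains the activating receptors, and the neonatal receptor FcRn (Fcgrt) pairs with β2-microglobulin and returns IgG and albumin from endosomes to the cell surface. Microglia and blood-derived macrophages both express these receptors, and interferon-γ is a known inducer of Fcgr1 and Fcgr4 in mouse myeloid cells.

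Fcgr2b, Fcgr4 and Fcgr3 follow each other on chromosome 1 with no other protein-coding gene between them in the GRCm38.p6 gene list, Fcer1g lies further along the same chromosome, Fcgr1 is on chromosome 3 and Fcgrt on chromosome 7. All 6 members matched the RefSeq promoter table of build GRCm38.p6. The 150 bases before the start of the 4 IgG receptor genes are printed because the members below fell into different patterns, and these windows show how far the genes differ in short motifs linked to myeloid and interferon control. Capitals mark matches on either strand to GAGGAA, a core bound by the myeloid factor PU.1, and to GAAA followed by any 2 bases and GAAA again, a pattern like the interferon-stimulated response element. Fcgr1 lies at chr3:96293970-96294119 on the minus strand, Fcgr2b at chr1:170976072-170976221 on the minus strand, Fcgr3 at chr1:171059404-171059553 on the minus strand and Fcgr4 at chr1:171018776-171018925 on the plus strand.
Fcgr1: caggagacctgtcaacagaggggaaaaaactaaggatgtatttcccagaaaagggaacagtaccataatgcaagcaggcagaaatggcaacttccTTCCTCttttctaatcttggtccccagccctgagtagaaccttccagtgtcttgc
Fcgr4: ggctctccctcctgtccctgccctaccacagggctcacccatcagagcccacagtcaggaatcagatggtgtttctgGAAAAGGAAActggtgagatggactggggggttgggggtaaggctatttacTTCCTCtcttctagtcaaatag
Fcgr3: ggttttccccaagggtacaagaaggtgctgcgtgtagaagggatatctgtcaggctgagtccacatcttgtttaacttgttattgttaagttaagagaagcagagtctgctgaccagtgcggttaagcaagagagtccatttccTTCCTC
Fcgr2b: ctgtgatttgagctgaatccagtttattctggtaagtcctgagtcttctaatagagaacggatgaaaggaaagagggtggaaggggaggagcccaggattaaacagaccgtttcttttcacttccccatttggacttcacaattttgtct
The 3 activating receptor genes each held 1 GAGGAA match, read as TTCCTC on the strand shown, and 14.5% of 32851 promoter windows of this length held at least 1. Fcgr4 alone among the members held a match to the pattern like the interferon response element, as GAAAAGGAAA, and 1.59% of windows held one. Whether any of these matches acts on its gene was not tested. The windows of Fcgr2b, Fcer1g and Fcgrt held none of these letters, which says nothing of what binds there. Fcgr3 has a second listed start 9 bases downstream with the same GAGGAA match.

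The deposited values were signed scores, centred so that each gene averaged 0 over the 32 libraries, and they had lost 11 of the 32 possible directions of variation before deposit. Each member also averaged 0 within the libraries of each recipient strain, so no average difference between strains was left in its scores. A score therefore says how a library stood relative to the others of its recipient strain for that gene. It gives no level to compare between genes and no fold change, and sequencing depth is unknown. Differences are given in score units with ± 1 standard error from a limma fit over all genes with 8 libraries against 8, and a gene was called at a Benjamini-Hochberg adjusted p below 0.05. The lost directions took unequal shares: 9 libraries kept under 50% of their own variation, 4 of them normal microglia. Library means of 8 microglia markers set macrophages apart from microglia, in the direction of their labels. They lay between -2.36 and -0.45 in tumour differentiated macrophages and between -2.44 and -0.70 in undifferentiated macrophages. In tumour microglia they lay between 0.68 and 1.64, and in normal microglia between 1.41 and 2.44. The 2 macrophage populations overlapped in these means, as did the 2 microglia populations. Over all genes the median of the differences was -0.25 for tumour microglia against normal microglia, 0.65 and 0.71 for differentiated and undifferentiated macrophages against tumour microglia, and 0.53 and 0.57 for the same macrophages against normal microglia. Subtracting each library's median removes these shifts, and its effect is given beside each member where it ends or adds a call or moves a called difference by over 1.5 times.

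The members split into 3 patterns. Fcgr4 and Fcgr2b were higher in all 3 tumour populations than in normal microglia. Fcgr1 and Fcgr3 were lower in both macrophage populations than in tumour microglia. The Fcgr3 call in differentiated macrophages was lost in 20 of the 32 fits that left out 1 library. Fcgrt was lower in undifferentiated macrophages than in either microglia population, and its call against normal microglia was lost in 9 of those fits. Fcer1g, the common γ chain, was called in none of the 6 comparisons. Population accounted for 83.8% of the variance over libraries for Fcgr2b, 81.1% for Fcgr4, 55.9% for Fcgr1, 41.7% for Fcgr3, 37.3% for Fcgrt and 14.2% for Fcer1g, against a median of 36.9% over all genes.

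**Figure D1:**
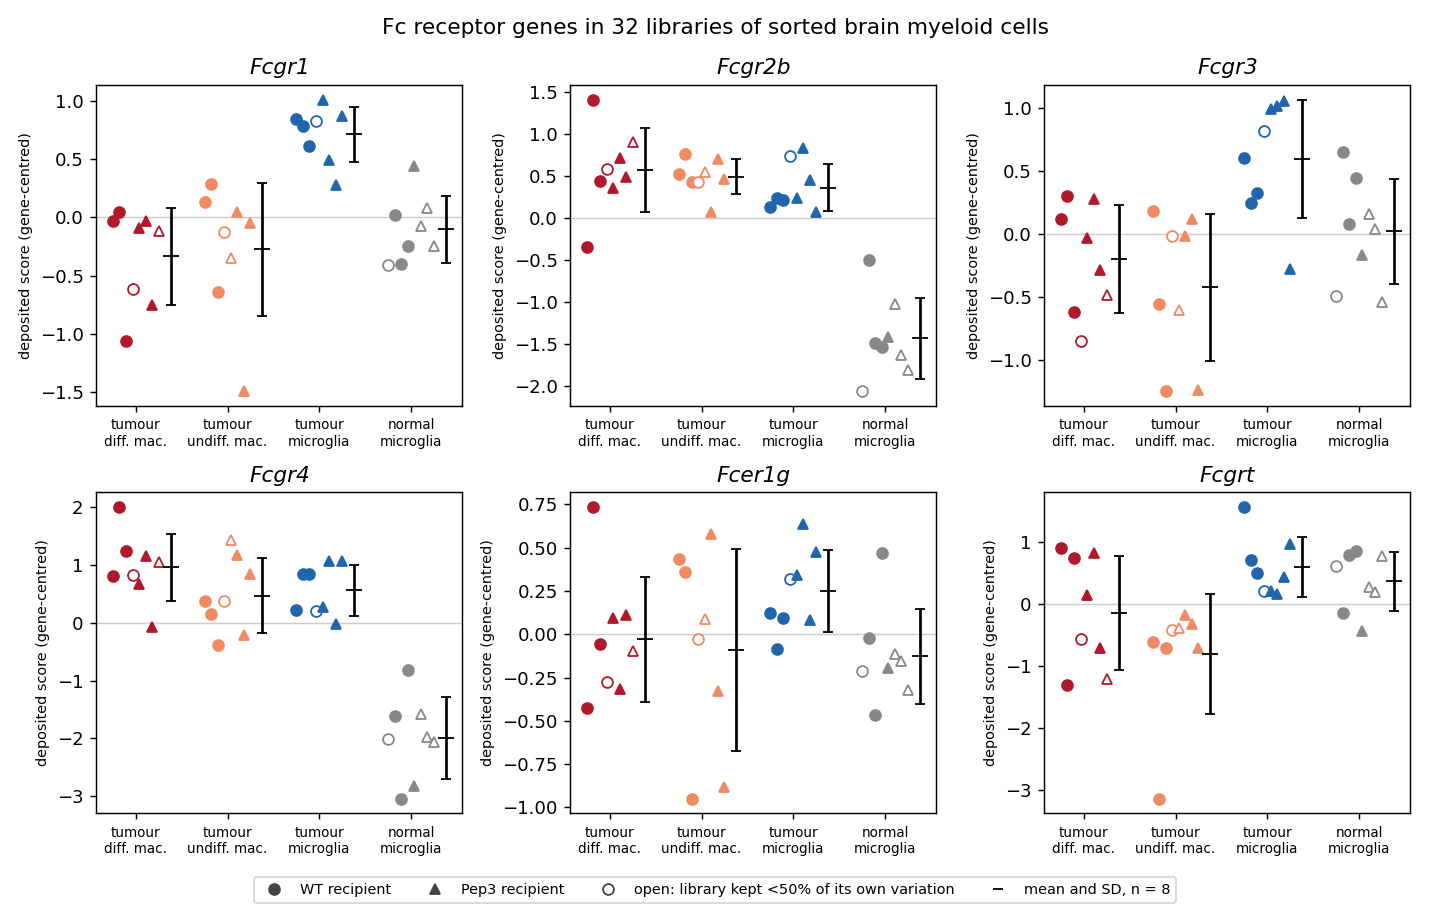
Deposited score (gene-centred, y axis) of the 6 Fc receptor genes in each of 32 libraries, by population, with circles for WT and triangles for Pep3 recipients, open symbols for libraries that kept under 50% of their own variation, and mean ± SD of 8 libraries. All normal microglia libraries lie below all tumour libraries for Fcgr4 and Fcgr2b, and for Fcgr2b the closest are differentiated macrophage library 4, at -0.34, and normal microglia library 9, at -0.50.

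Fcgr4, the activating receptor for IgG2a and IgG2b, separated tumour from normal cells most clearly. Its scores were -0.07 (lowest), 0.94 (median) and 2.00 (highest) in tumour differentiated macrophages, -0.39, 0.37 and 1.43 in undifferentiated macrophages, -0.03, 0.56 and 1.07 in tumour microglia and -3.05, -1.99 and -0.82 in normal microglia. Each tumour population stood wholly above normal microglia, while the 3 tumour populations overlapped with one another. The mean was 0.96 ± 0.59 in differentiated macrophages, 0.47 ± 0.64 in undifferentiated macrophages, 0.56 ± 0.44 in tumour microglia and -1.99 ± 0.70 in normal microglia (SD, n = 8 each).

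Between tumour microglia and normal microglia the Fcgr4 difference was 2.66 ± 0.38 (adjusted p = 0.000165), and 0.381% of all genes had a larger one. Against normal microglia it was 2.99 ± 0.38 in differentiated macrophages (adjusted p = 7.87e-06) and 2.53 ± 0.40 in undifferentiated macrophages (adjusted p = 0.000128). The 3 comparisons share the 8 normal microglia libraries. The deposited means, not adjusted for the lost directions, had the same direction in both recipient strains. They differed by 2.40 in WT and 2.71 in Pep3 mice for tumour against normal microglia, by 3.09 and 2.81 for differentiated macrophages and by 2.00 and 2.92 for undifferentiated macrophages. Limma fits of 1 strain that took out the lost directions gave 1.10 ± 0.79 in WT and 3.81 ± 1.39 in Pep3 for tumour microglia (adjusted p = 0.631 and 0.429). Among tumour populations no Fcgr4 difference was called. It was 0.33 ± 0.39 for differentiated macrophages against tumour microglia (adjusted p = 0.523) and -0.13 ± 0.41 for undifferentiated macrophages (adjusted p = 0.822), with intervals of -0.48 to 1.14 and -0.97 to 0.71. With library medians subtracted these were -0.34 ± 0.36 and -0.85 ± 0.38 (adjusted p = 0.468 and 0.0851). The Fcgr4 calls against normal microglia stood when any single library was left out.

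Fcgr1, the high-affinity IgG receptor and a marker used for macrophages, was highest in tumour microglia. The 8 differentiated macrophage libraries ran from -1.06 through a median of -0.11 to 0.04, the undifferentiated macrophages from -1.49 through -0.09 to 0.29, tumour microglia from 0.28 through 0.80 to 1.01, and normal microglia from -0.41 through -0.16 to 0.44. No differentiated macrophage library reached the lowest tumour microglia library, and 1 undifferentiated macrophage library, number 13 at 0.29, did. Means were -0.33 ± 0.42 in differentiated macrophages, -0.27 ± 0.57 in undifferentiated macrophages, 0.71 ± 0.24 in tumour microglia and -0.10 ± 0.29 in normal microglia (SD, n = 8 each).

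Differentiated macrophages were lower than tumour microglia in Fcgr1 by -1.07 ± 0.32 (adjusted p = 0.00958) and undifferentiated macrophages by -1.11 ± 0.34 (adjusted p = 0.0108). With library medians subtracted these differences were -1.74 ± 0.32 and -1.83 ± 0.33 (adjusted p = 0.000471 and 0.000542). As deposited, 93.6% and 94.4% of all genes had a difference above that of Fcgr1. These shares include genes with smaller negative differences, such as Fcer1g, so they do not count genes that were higher in macrophages. Within experiments 3 and 4 the deposited means of Fcgr1 differed by -1.08 and -1.02 for differentiated and by -0.75 and -1.23 for undifferentiated macrophages (4 libraries each, of opposite recipient strains). Without differentiated macrophage library 28, which kept 12.4% of its own variation, the Fcgr1 differences were -0.80 ± 0.45 (adjusted p = 0.185) and -0.94 ± 0.39 (adjusted p = 0.0599). Tumour microglia against normal microglia gave 0.87 ± 0.31, which missed the threshold (adjusted p = 0.0558), although 7 of 8 tumour microglia libraries stood above the highest normal one. That difference passed with library medians subtracted (1.12 ± 0.31, adjusted p = 0.0178), without the covariates for the lost directions (0.82 ± 0.25, adjusted p = 0.0186) and when library 20 or 31 of the differentiated or library 24 of the undifferentiated macrophages was left out. It did not pass with library weights (0.78 ± 0.40, adjusted p = 0.27) or with only the 2 populations compared (0.83 ± 0.355, adjusted p = 0.178). Leaving out 1 library gave adjusted p-values as high as 0.361.

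Fcgr3, the low-affinity activating receptor for immune complexes, was also highest in tumour microglia, next in normal microglia and lowest in the macrophages, with more overlap than Fcgr1. Its lowest, median and highest scores were -0.85, -0.16 and 0.30 in differentiated macrophages, -1.25, -0.29 and 0.18 in undifferentiated macrophages, -0.28, 0.71 and 1.06 in tumour microglia and -0.55, 0.06 and 0.65 in normal microglia. Tumour microglia library 30, at -0.28, was the only one of its population below 0, and 4 of 8 libraries in each macrophage population were lower than it. The mean was -0.20 ± 0.43 in differentiated macrophages, -0.42 ± 0.59 in undifferentiated macrophages, 0.60 ± 0.47 in tumour microglia and 0.02 ± 0.42 in normal microglia (SD, n = 8 each).

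Undifferentiated macrophages were lower than tumour microglia in Fcgr3 by -1.23 ± 0.36 (adjusted p = 0.00939) and differentiated macrophages by -0.88 ± 0.35 (adjusted p = 0.0447). With library medians subtracted these were -1.95 ± 0.36 and -1.55 ± 0.35 (adjusted p = 0.000597 and 0.00193). Within experiments 3 and 4 the deposited means of Fcgr3 differed by -1.11 and -0.94 for undifferentiated and by -0.96 and -0.63 for differentiated macrophages, again between opposite recipient strains. The call in differentiated macrophages was lost in 20 of the 32 fits that left out 1 library, and without differentiated macrophage library 28 the difference was -0.08 ± 0.43 (adjusted p = 0.911). Without that library the undifferentiated macrophage difference was -0.73 ± 0.37 (adjusted p = 0.125). Tumour against normal microglia gave 0.70 ± 0.34 (adjusted p = 0.153), and neither macrophage population was called against normal microglia. Without normal microglia library 26 the undifferentiated macrophages passed against normal microglia at -1.25 ± 0.39 (adjusted p = 0.04).

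Fcer1g, the γ chain through which FcγRI, FcγRIII and FcγRIV signal, varied least of the members. Its SD over the 32 libraries was 0.399, and 98.6% of all genes had a larger one. Scores ran from -0.43 through -0.08 to 0.74 in differentiated macrophages, from -0.95 through 0.03 to 0.58 in undifferentiated macrophages, from -0.08 through 0.22 to 0.64 in tumour microglia and from -0.47 through -0.17 to 0.47 in normal microglia. All 4 populations overlapped. The largest fitted differences were 0.47 ± 0.31 for tumour against normal microglia (adjusted p = 0.312), -0.37 ± 0.32 for differentiated macrophages against tumour microglia (adjusted p = 0.378) and -0.45 ± 0.34 for undifferentiated macrophages against tumour microglia (adjusted p = 0.294). Their intervals, -0.17 to 1.12, -1.03 to 0.30 and -1.15 to 0.24, leave room for differences of about the size seen in Fcgr1. With library medians subtracted the macrophage differences from tumour microglia were -1.03 ± 0.31 (adjusted p = 0.0121) and -1.18 ± 0.32 (adjusted p = 0.00876), so that Fcer1g then passed as lower in both.

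Fcgr2b, the inhibitory receptor, shared the tumour-against-normal pattern of Fcgr4. Differentiated macrophages ran from -0.34 through 0.54 to 1.41, undifferentiated macrophages from 0.08 through 0.50 to 0.76, tumour microglia from 0.07 through 0.24 to 0.83 and normal microglia from -2.06 through -1.51 to -0.50. Every normal microglia library was below 0 and below every tumour library, and 7 of 8 differentiated macrophage libraries and all 8 of each of the other tumour populations were above 0. Means were 0.57 ± 0.50 in differentiated macrophages, 0.49 ± 0.21 in undifferentiated macrophages, 0.36 ± 0.28 in tumour microglia and -1.43 ± 0.48 in normal microglia (SD, n = 8 each).

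The Fcgr2b difference from normal microglia was 1.89 ± 0.31 in tumour microglia (adjusted p = 0.000531), 2.00 ± 0.31 in differentiated macrophages (adjusted p = 8.39e-05) and 2.07 ± 0.33 in undifferentiated macrophages (adjusted p = 0.000134). In WT and Pep3 mice the deposited means, not adjusted for the lost directions, differed by 1.72 and 1.87 for tumour microglia. They differed by 1.92 and 2.09 for differentiated macrophages and by 1.93 and 1.92 for undifferentiated macrophages. Fits of 1 strain that took out the lost directions gave 0.026 ± 0.78 in WT and 2.17 ± 1.31 in Pep3 for tumour microglia (adjusted p = 0.992 and 0.551). Without normal microglia library 1, which kept 33.1% of its own variation, tumour microglia gave 1.54 ± 0.45 (adjusted p = 0.0921), and all other fits that left out 1 library kept the 3 calls. Between tumour populations Fcgr2b was within 0.18 units: 0.11 ± 0.32 for differentiated macrophages and 0.18 ± 0.33 for undifferentiated macrophages against tumour microglia, turning to -0.56 ± 0.31 and -0.54 ± 0.32 with library medians subtracted, with none of the 4 called. Fcgr2b and Fcgr3 have near-identical extracellular parts. Of the 75-base stretches in the protein-coding GENCODE M21 transcripts, 5.78% of those of Fcgr3 and 2.48% of those of Fcgr2b occur in the other gene, and reads from them could have been assigned to either, so both genes carry this uncertainty. No other pair of members shared a stretch of 50 or 75 bases.

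Fcgrt, the recycling receptor FcRn, was lowest in undifferentiated macrophages. Its lowest, median and highest scores were -1.31, -0.21 and 0.91 in differentiated macrophages, -3.14, -0.51 and -0.17 in undifferentiated macrophages, 0.16, 0.47 and 1.56 in tumour microglia and -0.44, 0.44 and 0.86 in normal microglia. No undifferentiated macrophage library was above 0 and no tumour microglia library below it. Differentiated macrophages averaged -0.15 ± 0.92, undifferentiated macrophages -0.81 ± 0.96, tumour microglia 0.59 ± 0.48 and normal microglia 0.36 ± 0.48 (SD, n = 8 each). Differentiated macrophages had 4 libraries above and 4 below 0.

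Undifferentiated macrophages were lower in Fcgrt than tumour microglia by -1.63 ± 0.48 (adjusted p = 0.00883) and than normal microglia by -1.41 ± 0.47 (adjusted p = 0.0298). Within experiments 3 and 4 the deposited means of Fcgrt differed from tumour microglia of the opposite recipient strain by -1.66 and -1.14. The mean leans on library 13 at -3.14, and leaving it out gave -1.06 ± 0.44 against normal microglia (adjusted p = 0.0837). That call was lost in 9 of the 32 fits that left out 1 library, while the call against tumour microglia was lost in 1, without differentiated macrophage library 31 (-1.20 ± 0.54, adjusted p = 0.109). Differentiated macrophages were called against neither microglia population, with -0.61 ± 0.46 against tumour microglia (adjusted p = 0.29), which passed with library medians subtracted (-1.28 ± 0.48, adjusted p = 0.0383). Tumour and normal microglia were not separated (0.21 ± 0.44, adjusted p = 0.778).

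**Figure D2:**
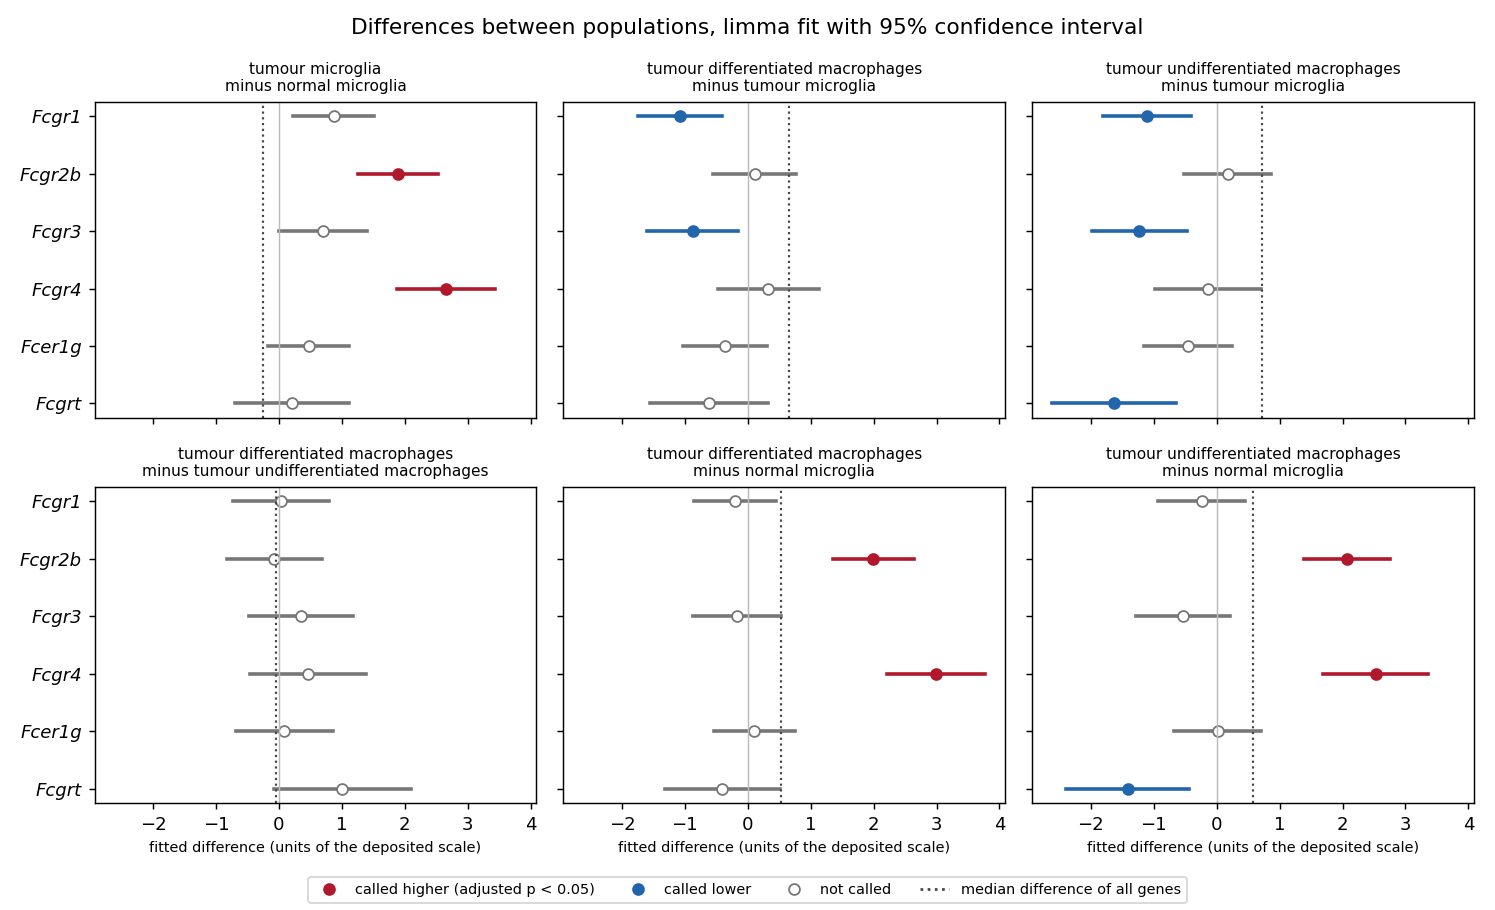
Fitted difference (x axis, units of the deposited scale) with its 95% confidence interval for the 6 Fc receptor genes in 6 population comparisons, 8 libraries against 8, filled symbols marking genes called at an adjusted p below 0.05 and the dotted line the median difference of all genes. Fcgr2b and Fcgr4 lie at 1.89 or above in the 3 comparisons with normal microglia, and Fcgr1 and Fcgr3 lie below 0 in both comparisons of macrophages with tumour microglia, where the median of all genes lies at 0.65 and 0.71.

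Set against the rest of the table, tumour microglia against normal microglia had 2 of 6 members called, both higher, where 16.7% of all genes were called 4.66% higher and 12% lower. Both of those members had libraries that did not overlap between the groups, as 1.77% of all genes did. Differentiated macrophages against tumour microglia had 2 of 6 called, both lower, where 43.4% of all genes were called, 37% higher and 6.35% lower, and Fcgr1 did not overlap, as 8.4% of genes did. For undifferentiated macrophages against tumour microglia 3 of 6 were called, all lower, where 41.9% of genes were called, 36.7% higher and 5.19% lower, and Fcgrt did not overlap, as 8.09% of genes did. Differentiated macrophages against normal microglia had 2 called higher, where 32.7% of all genes were called, 24.7% higher and 8.02% lower. Undifferentiated macrophages against normal microglia had 2 higher and 1 lower, where 28% of genes were called, 21.8% higher and 6.18% lower. In these last comparisons Fcgr2b and Fcgr4 did not overlap, as 8.46% and 8.71% of genes did. Over the 6 members the median difference was 0.79 for tumour against normal microglia, where that of all genes was -0.25. It was -0.49 (all genes 0.65) and -0.78 (all genes 0.71) for differentiated and undifferentiated macrophages against tumour microglia, and -0.04 (all genes 0.53) and -0.11 (all genes 0.57) for the same populations against normal microglia. The split of all called genes depends on scaling: with library medians subtracted 1358 were higher and 1336 lower in tumour against normal microglia (820 and 2116 as deposited), 3486 and 3385 in differentiated macrophages against tumour microglia (6510 and 1116), 2934 and 2862 in undifferentiated macrophages against tumour microglia (6448 and 913), 1843 and 2300 in differentiated macrophages against normal microglia (4346 and 1411) and 1373 and 1860 in undifferentiated macrophages against normal microglia (3838 and 1087).

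Fits on fewer libraries ended most of these calls. WT libraries alone and Pep3 libraries alone left 3 residual degrees of freedom once the lost directions were taken out, and their standard errors for members ran up to 1.75. WT libraries alone called 0 members in every comparison, with 0 genes called and between 861 and 2332 genes at an unadjusted p below 0.05, and there Fcgr2b turned to -0.57 ± 1.07 in differentiated and -0.40 ± 1.27 in undifferentiated macrophages against normal microglia. Pep3 libraries alone kept Fcgr4 in undifferentiated macrophages against normal microglia (4.26 ± 0.82, adjusted p = 0.0314) and turned Fcgr1 to 0.84 ± 1.64 and 0.37 ± 1.68 in differentiated and undifferentiated macrophages against tumour microglia. Fits on only the 2 populations compared, also with 3 residual degrees of freedom, kept Fcgr2b and Fcgr4 in tumour against normal microglia (1.78 ± 0.38 and 2.92 ± 0.35, adjusted p = 0.049 and 0.0238) and called no member in the other 5 comparisons. Without the 9 libraries that kept under 50% of their variation, 6 residual degrees of freedom were left and no member was called. Without those libraries and without the covariates, a choice made after seeing the data, Fcgr4 was called in all 3 comparisons with normal microglia (2.94 ± 0.48, 3.29 ± 0.49 and 2.65 ± 0.49 in tumour microglia, differentiated and undifferentiated macrophages). Fcgr2b then gave 1.59 ± 0.39 in tumour microglia (adjusted p = 0.0577) and stayed called in both macrophage populations.

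The 2 macrophage populations were not told apart by any Fc receptor gene. Of all genes 2, or 0.0114%, were called between differentiated and undifferentiated macrophages, and 491 had an unadjusted p below 0.05. Among members 0 of 6 passed limma's adjusted threshold and 0 had an unadjusted p below 0.05. Fcgrt came closest, higher by 1.01 ± 0.52 in differentiated macrophages (unadjusted p = 0.0658, adjusted p = 1), with an interval of -0.07 to 2.09. Intervals for the other members reached from -0.83 (Fcgr2b) to 1.39 (Fcgr4), which does not show that the populations were alike. Nor was any member called for a different response in the recipient strains, which here cannot be told apart from experiments: over the 6 comparisons the smallest unadjusted p of a member was 0.0919, for Fcgr3 in tumour against normal microglia. In that comparison 5.03% of all genes were called for such a difference, 0.449% for differentiated and 0.00569% for undifferentiated macrophages against tumour microglia, 0% between the macrophage populations, and 0.0171% and 0.0227% for differentiated and undifferentiated macrophages against normal microglia.

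Across all 32 libraries Fcgr2b and Fcgr4 had a Pearson correlation of 0.85. The points share libraries, and within populations the correlation was 0.18, so the pooled value mostly restates the low scores of normal microglia in both genes. Fcgr1 and Fcgr3 had 0.52 over all libraries and 0.12 within populations, and Fcgr3 and Fcer1g 0.56 and 0.50. Fcgr2b and its neighbour Fcgr3 had 0.04 over all libraries and 0.35 within populations. Fcgr2b and Fcgrt had -0.43 over all libraries and -0.565 within populations. Among differentiated macrophages library 12 was highest in Fcgr2b and lowest in Fcgrt, and library 4 was the reverse. Library 13 was highest in Fcgr2b and lowest in Fcgrt among undifferentiated macrophages. The correlation without these libraries was not computed. By the same measure the genes most like Fcgr2b were Cd300lf, an inhibitory receptor of myeloid cells (0.92), Sec61b (0.914), Lilrb4, another ITIM receptor (0.909), Ly6a (0.909) and Lyz2, lysozyme of myeloid cells (0.904). Those most like Fcgr4 were Cxcl10, an interferon-induced chemokine (0.915), Cd52 (0.913), the interferon-induced gene Ifi27l2a (0.902), the MHC class I gene H2-K1 (0.9) and Ly6a (0.896). Fcgr3 was most like C1qc, a chain of complement C1q (0.833), Rnase4 (0.832), Tmem8c (0.83), Tram1 (0.816) and Pld1 (0.807). Fcgr1 was most like Tra2b (0.791), Fcer1g most like Phb2 (0.789) and Fcgrt most like Pdia4 (0.75). All these values are pooled over populations, which held 83.8% and 81.1% of the variance of Fcgr2b and Fcgr4. They can restate the split between populations, and correlations of these genes with the members within populations were not computed.

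**Figure D3:**
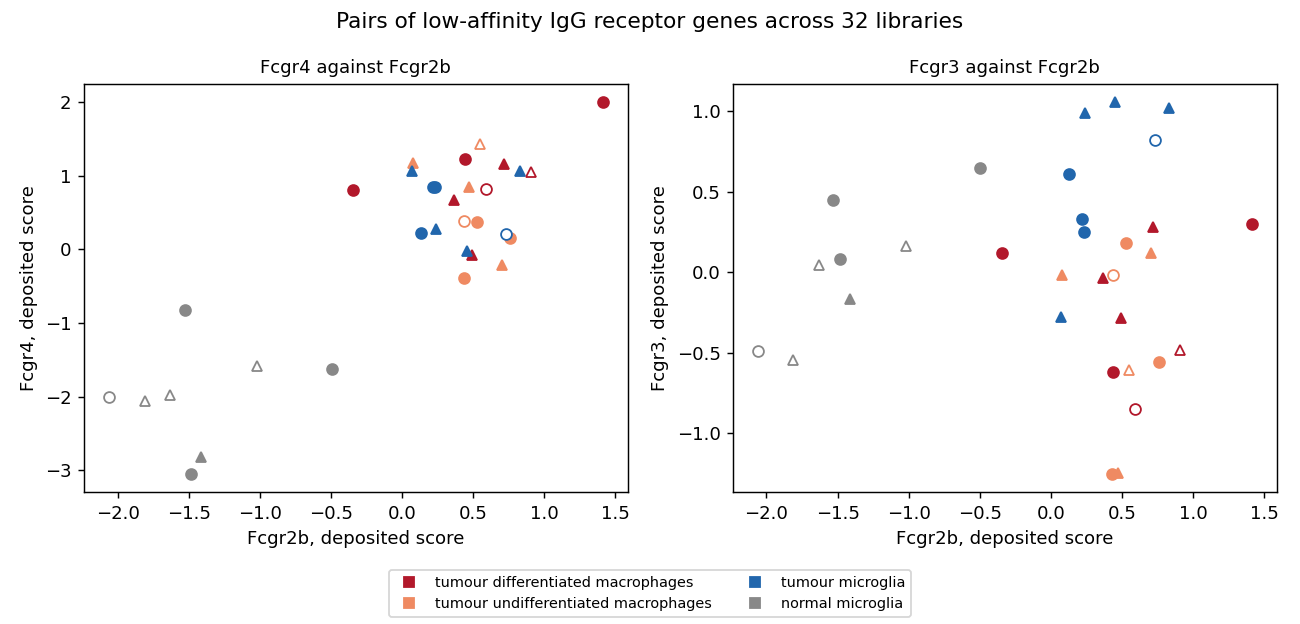
Deposited scores of Fcgr4 (left) and Fcgr3 (right) against those of Fcgr2b in 32 libraries, coloured by population, with circles for WT and triangles for Pep3 recipients and open symbols for libraries that kept under 50% of their own variation. Normal microglia form the low group in both Fcgr2b and Fcgr4, with a correlation of 0.85 over all libraries and 0.18 within populations, and Fcgr3 shows 0.04 with Fcgr2b over all libraries and 0.35 within populations.

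The partners of these receptors moved in several directions. Among 7 measured Fc receptor and Fc receptor-like genes outside the members, Fcrls, a receptor-like gene known as a microglial marker, was lower in tumour microglia than in normal microglia by -1.83 ± 0.38 (adjusted p = 0.0026) and lower again in the macrophages, by -2.74 ± 0.39 and -3.28 ± 0.41 against tumour microglia (adjusted p = 2.6e-05 and 1.15e-05) in differentiated and undifferentiated cells. Differentiated macrophages had 3 of the 7 higher and 3 lower than tumour microglia, where 37% of all genes were called higher and 6.35% lower, so the count of higher genes was near the share over all genes. Fcgbp (2.72 ± 0.36), which binds the Fc part of IgG, Fcer2a (2.11 ± 0.49), the low-affinity IgE receptor, and Pigr (2.07 ± 0.40), which carries polymeric immunoglobulin across epithelia, were higher, and Fcrl1 (-1.29 ± 0.45) and Trim21 (-1.05 ± 0.37), a cytosolic IgG receptor, were lower with Fcrls. Undifferentiated macrophages had 4 higher, Fcrl5 in addition (1.60 ± 0.39), and the same 3 lower, where 36.7% of all genes were called higher and 5.19% lower. The same shares stand behind the counts of other lists in these comparisons. Between tumour and normal microglia 4.66% of all genes were called higher and 12% lower. Of 4 measured receptors that pair with the γ chain, the C-type lectins Clec4e (2.56 ± 0.62 and 3.29 ± 0.65) and Clec4n (3.26 ± 0.69 and 2.76 ± 0.73) were higher in differentiated and undifferentiated macrophages than in tumour microglia, and none was called between tumour and normal microglia. Of 3 ITAM adaptors, Cd247, the ζ chain of T and NK cells, was higher in both macrophage populations (1.952 ± 0.481 and 1.301 ± 0.503), and Tyrobp, which encodes DAP12, was lower in undifferentiated macrophages (-0.96 ± 0.36, adjusted p = 0.0358).

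Downstream of the activating receptors, 24 signalling genes were measured, and 1 differed between tumour and normal microglia, the exchange factor Vav3 (-1.296 ± 0.312, adjusted p = 0.0075). Of all genes 16.7% were called in that comparison. Against tumour microglia 4 were higher and 4 lower in differentiated macrophages, with 3 and 4 in undifferentiated macrophages. The Src-family kinase Fgr (2.82 ± 0.59 and 3.36 ± 0.61 in differentiated and undifferentiated cells) and Vav3 (2.20 ± 0.32 and 2.31 ± 0.34) were higher. The adaptor Blnk (-2.10 ± 0.35 and -2.64 ± 0.36) and the phospholipase Plcg2 (-1.34 ± 0.37 and -1.21 ± 0.39) were lower, with the kinases Lyn and Btk also called lower in both. Of 9 inhibitory phosphatases and docking proteins, Inpp5d, which encodes SHIP1, the phosphatase recruited by FcγRIIB, was lower in both macrophage populations than in tumour microglia (-1.27 ± 0.28 and -0.88 ± 0.29), and the docking protein Dok2 was higher (2.54 ± 0.71 and 2.52 ± 0.74). None of the 9 was called between tumour and normal microglia, where 16.7% of all genes were called, Fcgr2b among them. Of 5 NADPH oxidase genes Cybb, the catalytic subunit gp91phox, was higher in tumour than in normal microglia (1.92 ± 0.45, adjusted p = 0.00642) and higher again in both macrophage populations than in tumour microglia (1.55 ± 0.47 and 1.73 ± 0.49), and Ncf1, its p47phox organiser, was lower in both macrophage populations (-1.29 ± 0.35 and -0.97 ± 0.36).

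**Figure D4:**
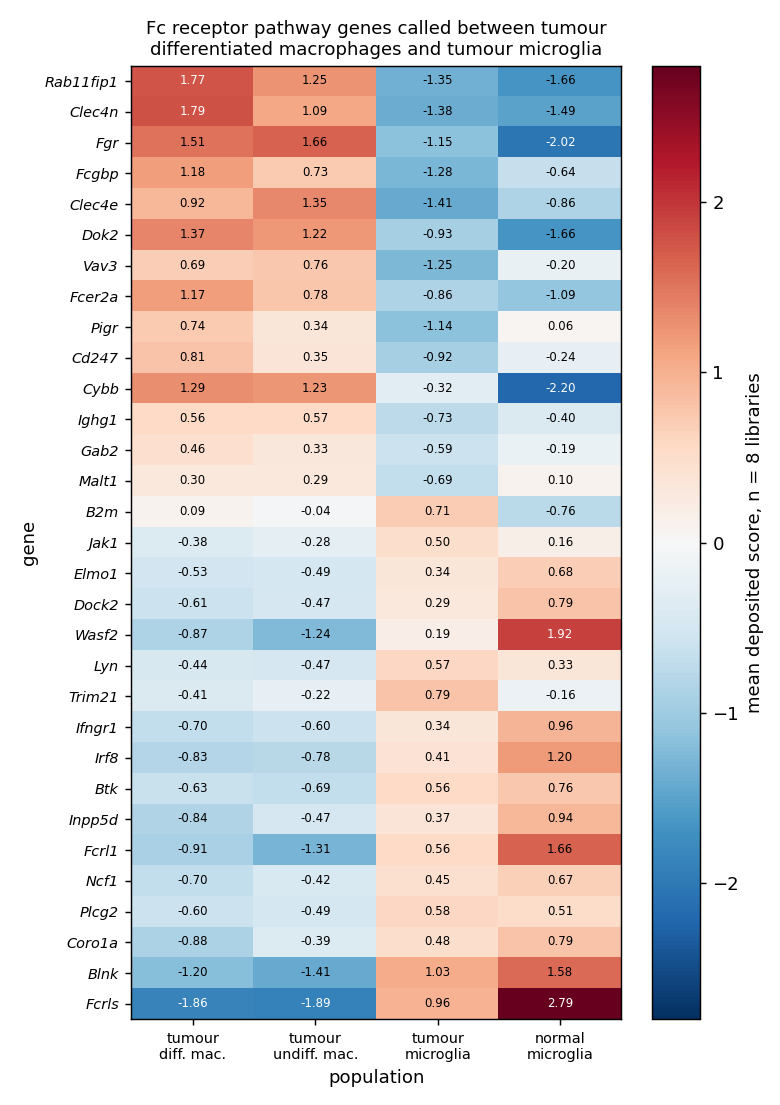
Mean deposited score (colour and printed value, n = 8 libraries) in the 4 populations of the 31 Fc receptor pathway genes called between tumour differentiated macrophages and tumour microglia, ordered by that difference, 14 higher and 17 lower. Rab11fip1, Clec4n and Fgr are at the top and Blnk and Fcrls at the bottom, and both macrophage columns share a sign in every row except B2m.

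For FcRn, 4 genes of its light chain and recycling route were measured. B2m, the light chain, was higher in tumour than in normal microglia (1.61 ± 0.28, adjusted p = 0.000903) and lower in differentiated and undifferentiated macrophages than in tumour microglia (-0.74 ± 0.29 and -0.90 ± 0.31, adjusted p = 0.0453 and 0.0215). Fcgrt was lower than in tumour microglia in undifferentiated macrophages and not called in differentiated ones. Rab11fip1, an effector of Rab11 in recycling endosomes, was higher in both macrophage populations (3.57 ± 0.64 and 2.90 ± 0.67). Among 7 of the regulators of the interferon-γ response that induces Fcgr1 and Fcgr4, Irf8 was lower in tumour than in normal microglia (-0.85 ± 0.29, adjusted p = 0.0447). Against normal microglia 1 of the 7 was higher and 2 were lower in differentiated macrophages, where 24.7% of all genes were higher and 8.02% lower. In undifferentiated macrophages 2 were higher and 2 lower, where 21.8% of all genes were higher and 6.18% lower. Irf1 was higher in differentiated and undifferentiated macrophages (1.28 ± 0.42 and 1.89 ± 0.45), while Ifngr1, a chain of the interferon-γ receptor, was among those lower (-1.66 ± 0.39 and -1.67 ± 0.42). Between macrophages and tumour microglia none of the 7 was higher, and Irf8 (-1.142 ± 0.298 and -1.301 ± 0.311) and Ifngr1 (-1.11 ± 0.40 and -1.12 ± 0.42) were lower in differentiated and undifferentiated cells.

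Markers of other cells that carry Fc receptors moved with some of these comparisons, and fewer cells of a type and less RNA per cell cannot be told apart in sorted bulk samples. B cells carry Fcgr2b, and of 3 measured B cell markers 2 were higher in differentiated macrophages than in tumour microglia, and 2 higher and 1 lower in undifferentiated macrophages, with library means of -0.35 to 1.15 in differentiated macrophages, -0.34 to 1.25 in undifferentiated macrophages, -0.99 to 0.29 in tumour microglia and -0.78 to 0.38 in normal microglia. None of the 3 was called between tumour and normal microglia, where Fcgr2b was higher. Against normal microglia, where Fcgr2b was also higher, 2 of the 3 were higher and 1 was lower in each macrophage population. Of all genes 24.7% were called higher and 8.02% lower there in differentiated macrophages, and 21.8% and 6.18% in undifferentiated macrophages. Dendritic cells carry Fc receptors too, and 3 of their markers were measured. Of these Xcr1 alone was called higher in tumour than in normal microglia (1.66 ± 0.46, adjusted p = 0.0176), as 4.66% of all genes were. All 3 were higher in each macrophage population than in normal microglia, in the direction of Fcgr2b and Fcgr4, beside the same shares of 24.7% and 21.8%. Their library means ran from -0.19 to 1.45 in differentiated macrophages, -0.12 to 1.11 in undifferentiated macrophages, -0.92 to 0.61 in tumour microglia and -1.91 to -0.69 in normal microglia. Against tumour microglia 2 of these markers were higher in differentiated and 1 in undifferentiated macrophages. NK cells carry Fcgr3, and both measured NK cell markers were higher in each macrophage population than in tumour microglia, while Fcgr3 was lower. Their library means ran from -0.15 to 2.12 in differentiated macrophages, -0.19 to 1.47 in undifferentiated macrophages, -2.81 to 0.37 in tumour microglia and -2.10 to 0.67 in normal microglia. Of 6 pan-myeloid markers 3 were lower in differentiated and 4 in undifferentiated macrophages than in tumour microglia, with Csf1r at -1.78 and -1.98, in the direction of Fcgr1 and Fcgr3, and none was called between tumour and normal microglia. Of 2 measured neutrophil markers 1 was higher and 1 lower in each macrophage population than in either microglia population. Neither was called between tumour and normal microglia. The 1 measured mast cell marker was lower in tumour than in normal microglia and higher in each macrophage population than in tumour microglia. The part of other cell types in the Fc receptor results was not tested.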

How the data were processed

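RNA of 32 libraries was converted to cDNA by Clontech SMART-Seq v4 low-input chemistry, per the labels' protocols, and FastQC, STAR 2.5.0a, RSEM 1.3.0 and build mm9 are named in the submitters' processing notes. The authors deposited 1 table of 17586 genes whose signed values, from -6.50 to 6.92, were treated as scores of unstated scale. They spanned 21 dimensions, and the step that removed the other 11 is not given in the sources used here. Scores were used as deposited, without the log transform, filter or pseudocount first planned, in limma 3.58.1 under R 4.3.3. Each combination of population and recipient strain had its own mean, with the removed directions as covariates (15 residual degrees of freedom) and robust empirical Bayes variances. Contrasts were averaged over strains, and p-values were two-sided and adjusted over all genes. A library's kept share of variation is 1 minus the sum of its squared loadings on the removed directions. The fit was tested on simulated data. Alternatives were no covariates, subtracted library medians, library weights, non-robust variances, 1 recipient strain, fewer libraries, a block for runs of consecutive library numbers and leaving out each library. The members and gene lists were chosen with earlier results of these data known. Named were all members, up to 4 called genes a list and comparison, the 5 genes most alike by Pearson correlation, and population markers. Promoters came from RefSeq (GRCm38.p6), a later build than the authors', and transcripts from GENCODE M21, and no coordinate was converted. Depth is unknown. 1 regulator gene and 1 promoter motif are not reported here.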

Additional observations from a re-analysis of the deposited data

Results flagged for a closer look

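In 24 groups of 8 libraries (6 genes in 4 populations) the gap between an extreme library and its nearest neighbour was compared with the range of the group, against Dixon's 95% critical value for 8 libraries, which chance alone passes in about 5% of groups. It was passed in 2 groups. Fcgrt in tumour undifferentiated macrophages had library 13 at -3.14, with the next lowest at -0.708 (gap over range 0.82). Fcer1g in tumour differentiated macrophages had library 12 at 0.735, with the next highest at 0.109 (gap over range 0.539). Library 12 was also the highest differentiated macrophage library for Fcgr1, Fcgr2b, Fcgr3 and Fcgr4 and the lowest for Fcgrt. Both libraries came from WT recipients in experiment 3.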

How the results depend on the processing

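DM, UM, TM and NM stand here for tumour differentiated macrophages, tumour undifferentiated macrophages, tumour microglia and normal microglia, and DM-TM for the difference of the first from the second. Library numbers run from 1 to 32 with none shared between groups, but each run of 8 consecutive numbers holds 1 library of every population and strain, a layout to which the labels give no meaning. Deviations from group means correlated by -0.0057 on average within these 4 sets (from -0.65 to 0.62) and 0.0021 between them. The average covers every pair of groups in a set, and directions were lost before deposit, so it cannot show whether some libraries are paired. With the sets as a replicate block, chosen after seeing the data (12 residual degrees of freedom), Fcgrt in UM-NM lost its call (-1.16 ± 0.49, adjusted p = 0.0905), no other call of a member changed (Fcgr1 in TM-NM 0.85 ± 0.29, adjusted p = 0.0527), 0 genes were called in DM-UM (505 at an unadjusted p below 0.05), Fcgr4 was 0.011 in UM-TM, and Fcgr1 was -0.14, Fcgr2b 0.065 and Fcer1g -0.036 in DM-UM. Depth is unknown, so how far low counts limit these genes could not be assessed. The Fcgr4 and Fcgr2b calls against NM, the Fcgr1 calls in DM-TM and UM-TM and the Fcgr3 and Fcgrt calls in UM-TM kept direction and call without the covariates, with library medians subtracted, with library weights and with non-robust variances. Non-robust variances moved no call of a member. Sign changes below concern differences that were not called, unless named. Leaving out each library in turn, genes called ranged from 171 to 3666 in TM-NM, 4897 to 8004 in DM-TM, 4374 to 7688 in UM-TM, 0 to 3 in DM-UM, 1853 to 6133 in DM-NM and 1932 to 5647 in UM-NM, and members called ranged from 1 to 3 in TM-NM, 0 to 2 in DM-TM, 1 to 3 in UM-TM and 2 to 3 in UM-NM, staying at 2 in DM-NM and 0 in DM-UM. The Fcgr3 difference then ranged from -0.055 to 1.18 in TM-NM and -0.95 to 0.49 in DM-NM, Fcgrt from -0.22 to 0.87 in TM-NM and -0.73 to 0.36 in DM-NM, Fcgr2b from -0.041 to 0.31 in DM-TM, -0.047 to 0.37 in UM-TM and -0.36 to 0.21 in DM-UM, Fcgr4 from -0.33 to 0.58 in DM-TM and -0.61 to 0.067 in UM-TM, Fcgr1 from -0.21 to 0.23 in DM-UM and -0.45 to 0.022 in DM-NM, and Fcer1g from -0.16 to 0.34 in DM-UM, -0.19 to 0.36 in DM-NM and -0.18 to 0.24 in UM-NM. Without covariates 0 genes were called in DM-UM (353 at an unadjusted p below 0.05), and Fcgr1 was -0.059 and Fcgr2b 0.077 there. With library medians subtracted 4 members were called in DM-TM and 3233 genes in UM-NM, Fcgr2b was -0.56 in DM-TM and -0.54 in UM-TM, Fcgr4 -0.34 in DM-TM, and Fcer1g -0.32 in DM-NM and -0.46 in UM-NM. With library weights 745 genes were called in TM-NM, 4 in DM-UM, 1933 in DM-NM and 2545 in UM-NM, 1 member in DM-TM, Fcgr2b was -0.052 in DM-TM, Fcgrt 0.0020 in DM-NM and Fcer1g -0.053 in UM-NM. With only the populations compared 473 genes were called in TM-NM, 55 in DM-TM, 9 in UM-TM, 0 in DM-UM (680 at an unadjusted p below 0.05), 76 in DM-NM and 438 in UM-NM, and 0 members in DM-TM, UM-TM, DM-NM and UM-NM. Fcgr2b was then -0.45 in DM-TM and -0.32 in UM-TM, Fcgr4 -0.63 in DM-TM, Fcgrt 0.46 in DM-TM and 1.06 in DM-NM, and Fcer1g -0.45 in DM-NM. In WT recipients 0 genes and 0 members were called in all 6 comparisons. Fcgr2b was -0.60 in DM-TM, -0.42 in UM-TM and, reversing calls, -0.57 in DM-NM and -0.40 in UM-NM. Fcgr3 was -0.49 in TM-NM, Fcgr4 0.64 in UM-TM and Fcgr1 -0.12 in DM-UM. Fcer1g was -0.96 in TM-NM, 0.080 in DM-TM, 0.54 in UM-TM, -0.46 in DM-UM, -0.88 in DM-NM and -0.42 in UM-NM, and Fcgrt 0.21 in DM-TM, 2.36 in DM-NM and, reversing a call, 0.67 in UM-NM. In Pep3 recipients 0 genes were called in TM-NM, DM-TM, UM-TM and DM-NM (1895, 1930, 2097 and 2758 at an unadjusted p below 0.05), 1 in DM-UM and 460 in UM-NM, with 1 member in UM-NM and 0 elsewhere. Fcgr1 was -0.31 in TM-NM, 0.53 in DM-NM, 0.065 in UM-NM and, reversing calls, 0.84 in DM-TM and 0.37 in UM-TM. Fcgr2b was -0.92 in DM-TM and -0.83 in UM-TM, Fcgr4 0.46 in UM-TM, and Fcgrt 0.58 in DM-TM, 1.54 in DM-NM and, reversing a call, 0.76 in UM-NM. Without the libraries that kept under 50% of their variation 0 genes were called in TM-NM, DM-TM and DM-NM (1866, 1935 and 1560 at an unadjusted p below 0.05), 3 in UM-TM, 1 in DM-UM and 4 in UM-NM, and 0 members anywhere. Fcgr2b was then -0.23 in DM-TM and -0.11 in UM-TM, Fcgr4 -0.29 in DM-TM, Fcgr1 0.026 in DM-NM and Fcgr3 0.086 in DM-NM. Dropping the covariates as well, chosen after seeing the data, gave 133 genes in TM-NM, 0 in DM-UM (540 at an unadjusted p below 0.05) and 3255 in DM-NM, 1 member in TM-NM and 1 in DM-TM, Fcgr1 -0.036 and Fcgr2b 0.018 in DM-UM, Fcgrt 0.069 in DM-NM and Fcer1g -0.031 in UM-NM. These last 4 kinds of fit had 3, 3, 6 and 15 residual degrees of freedom, against 15 with all libraries. The cause of each change was not tested.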

Other observations

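Of 12 measured genes of the phagocytic uptake machinery that works below Fc receptors, Wasf2, an actin regulator of the WAVE complex, was lower in tumour than in normal microglia (-1.71 ± 0.34, adjusted p = 0.00209), and Myo10, a myosin of phagocytic cups, was higher (1.13 ± 0.39, adjusted p = 0.0477). In differentiated macrophages 4 were lower than in tumour microglia and 0 higher, with Coro1a, an actin-binding protein of the phagosome, at -1.40 ± 0.42, Wasf2 at -0.97 ± 0.35, and the guanine-exchange partners Elmo1 and Dock2 at -0.91 ± 0.33 and -0.93 ± 0.36. Undifferentiated macrophages had 2 lower, Wasf2 (-1.88 ± 0.37) and Elmo1 (-0.99 ± 0.34), and 0 higher. Of the ligands of these receptors 2 of 7 listed immunoglobulin chain genes were measured. Ighg1, the constant region of IgG1, was higher in differentiated (1.44 ± 0.43, adjusted p = 0.0093) and undifferentiated macrophages (1.52 ± 0.45, adjusted p = 0.00938) than in tumour microglia, and the joining chain gene Igj was higher in undifferentiated macrophages (1.18 ± 0.45, adjusted p = 0.0384).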
